A study of Homo sapiens with 4 samples.

Results

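The messenger RNAs of 37 genes that build keratin filaments and cell-cell junctions, or mark the epithelial or mesenchymal state, were followed in A549, a cell line long kept in culture that came from a human lung adenocarcinoma. A gene belonged to the set by its symbol alone, and its reads were summed over all its listed transcripts. All 37 were among the 34484 gene symbols listed, and 32 of them had the 40 or more reads over the 4 libraries that the selection required, as did 14576 symbols in all. CLDN4, with 51 reads, lay just inside that limit. CLDN7 and GJB2, with 30 reads each, lay just outside, and CLDN3 had 26, TJP3 24 and ESRP1 12. The dex group was 2 libraries of cells given 100 nM dexamethasone, a synthetic glucocorticoid, and the etoh group was 2 libraries of cells given 0.02% ethanol as vehicle, both for 3 h. The labels name no separate cultures, so the error behind each p-value is that between the libraries at hand and may be technical. A549 is 1 tumour line in culture, and in RNA from whole cultures a change per cell and a change in the share of cells that express a gene cannot be told apart.

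Keratins are intermediate filament proteins that assemble only as pairs of a type I and a type II chain. In simple epithelia such as the lung lining, the main pair is KRT8 (type II) with KRT18 (type I). Desmosomes anchor these filaments at the cell surface: the cadherins desmoglein and desmocollin hold neighbouring cells together, plakoglobin and plakophilins bind their tails, and desmoplakin links the plaque to keratin. Tight junctions seal the space between cells with claudins and occludin, adherens junctions join classical cadherins to actin through catenins, and gap junctions are channels of connexins. Glucocorticoids are known to tighten epithelial and endothelial barriers in several tissues.

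The 4 libraries held between 9764159 and 11887526 aligned reads. Of 8 markers of A549 or epithelial cells all were read, from 394 reads of EPCAM to 691430 of ALDH1A1, summed over the libraries. Of 4 leukocyte markers CD14 had 89 reads over the 4 libraries (29 and 20 in dex, 16 and 24 in etoh), LYZ 12, PTPRC 1 and CD3E 0. Of 6 fibroblast markers COL1A1 had 686 reads (164 and 237 in dex, 102 and 183 in etoh), LUM 33 and the others from 0 (COL1A2) to 18. The 4 endothelial markers listed had from 0 (VWF) to 14 reads. A count of 0 allows up to 0.307 on the counts-per-million scale (CPM) in the shallowest library, by counting error alone.

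Keratins dominated the set. The 37 genes took 1.17% ± 0.0758 of aligned reads in dex and 0.849% ± 0.0457 in etoh (SD, n = 2 each, as for all values below), and KRT8 with KRT18 made up 0.676% ± 0.0749 and 0.380% ± 0.0411. On a scale that corrects for transcript length (the transcripts-per-million scale, TPM), KRT8 was at 2623 ± 45.4 and KRT18 at 2533 ± 353 in etoh, levels that did not differ beyond their spread. The KRT8 value sums 10 listed transcripts, against 3 for KRT18. Some of the 10 are short, such as KRT8-019 with 250 bases and 3724 reads, which raises the value on this scale. In CPM, KRT8 was below KRT18 in both etoh libraries, at 1660 and 1795 against 1854 and 2300. How the partners compare in level therefore depends on the scale. KRT7, another type II chain of simple epithelia, came next at 773 ± 58.9 TPM. The mesenchymal filament vimentin, VIM, followed at 675 ± 17.6 TPM, KRT81 at 465 ± 33.9 TPM and alpha-catenin, CTNNA1, at 391 ± 22.8 TPM. KRT81 and CTNNA1 had non-overlapping libraries, 441 and 489 TPM against 407 and 375 TPM. The CTNNA1 value sums 31 listed transcripts, many of them short, which raises it on this scale, against 1 for KRT81. Its place in this order therefore depends on them. At the low end were DSC2 at 2.69 ± 0.0808 TPM, the tight junction plaque protein CGN at 1.01 ± 0.164 TPM and CLDN4 at 0.468 ± 0.178 TPM. N-cadherin, CDH2, stood above E-cadherin, CDH1, in every library, by a TPM ratio of 4.18 and 4.77 in dex and 4.99 and 5.07 in etoh. A549 in these libraries thus carried epithelial keratin message beside abundant VIM and CDH2, with ESRP1, an epithelial splicing regulator, at 3 and 5 reads in dex and 1 and 3 in etoh.

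**Figure D1:**
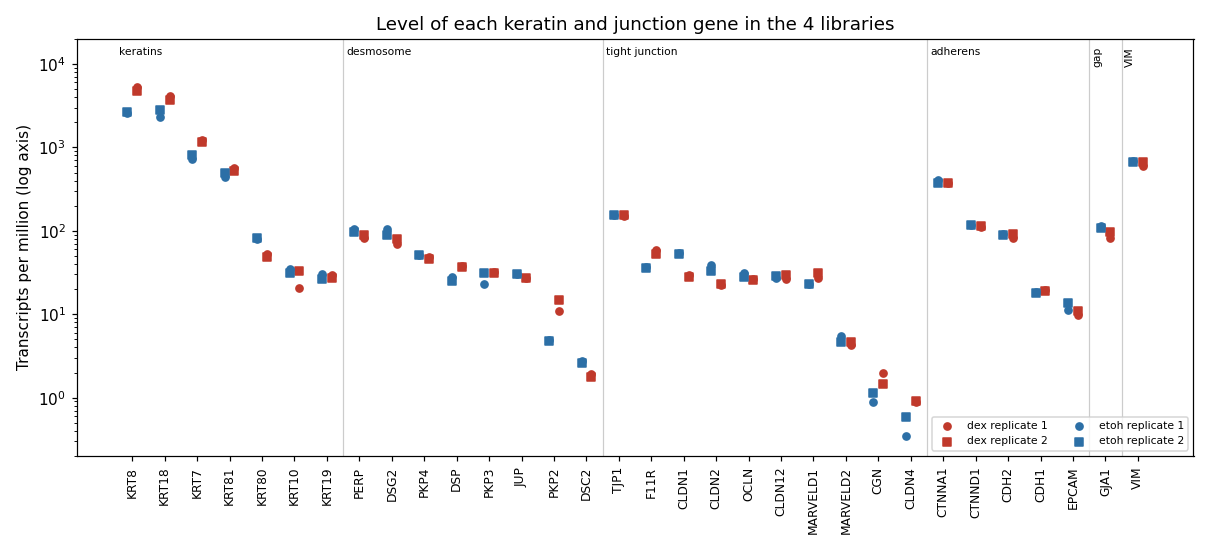
Level of the 32 genes with 40 or more reads, in TPM on a log axis, grouped by structure. Each point is 1 library (red dex, blue etoh; circle replicate 1, square replicate 2). KRT8 and KRT18 lie highest and CLDN4 lowest, and the red points of KRT8, KRT18, KRT7 and PKP2 lie above the blue ones while those of KRT80, CLDN1 and CLDN2 lie below.

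Of the 32 genes, 7 rose and 4 fell after dexamethasone at an adjusted p of 0.05 (quasi-likelihood test of edgeR, p-values adjusted by Benjamini and Hochberg's method over 14716 genes). Of all tested genes 11.5% passed, 7.12% higher and 4.34% lower. The set was chosen with earlier results of these data known, so its counts beside these shares are a description and no test. The genes that rose were KRT8, KRT18, KRT7, PKP2, DSP, F11R and MARVELD1, and those that fell were KRT80, DSG2, CLDN1 and CLDN2. The median log2 fold change was -0.031 over the 32 genes and 0.0018 over all tested genes. Both dex libraries lay above both etoh libraries for 13 of the 32 genes, against 24.6% of all tested genes, and below them for another 13, against 28.8%. The first 13 and the median include CLDN4, which reached the count filter through its dex libraries alone. All log2 fold changes below are dex against etoh, with the standard error (SE) from the same test, and levels are CPM, that is reads of the gene scaled to the aligned total of its library.

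**Figure D2:**
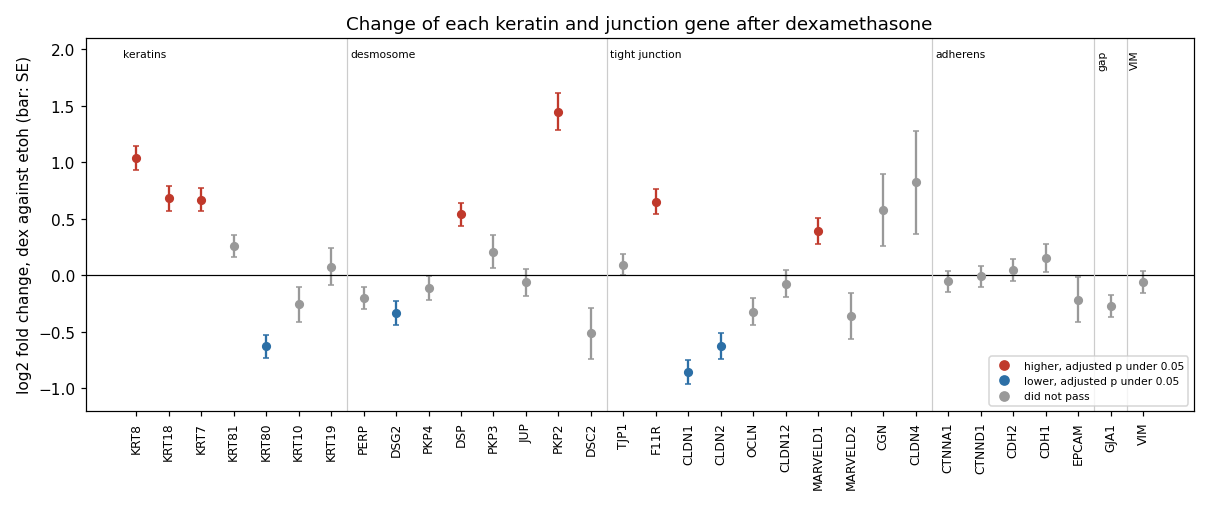
Log2 fold change, dex against etoh, of the 32 genes, grouped by structure and ordered by level within each. Points are estimates from all 4 libraries and bars are SE. Red genes (7) rose and blue genes (4) fell at an adjusted p under 0.05, and grey genes did not pass. Red and blue points occur together among keratins, desmosomal genes and tight junction genes, and none of the 5 adherens junction genes is coloured.

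Sequence just upstream of the start was looked up in RefSeq (GRCh38.p14), which held 21 of the 32 genes. It gave no window for KRT7, KRT18, PKP2 and F11R, which rose, or for KRT80, which fell. The 250 bases before the start are shown for 2 genes that rose, KRT8 and DSP, and 2 that fell, CLDN1 and CLDN2, since they carry the opposite responses described below. KRT8 is on the minus strand at chr12:52926470-52926719, DSP on the plus strand at chr6:7541421-7541670, CLDN1 on the minus strand at chr3:190322447-190322696 and CLDN2 on the plus strand at chrX:106899914-106900163. The start is the one in the RefSeq table. For KRT8 the whole window lies inside the longer GENCODE 29 gene model used for positions here, 23235 bases in from that model's 5′ end, so it precedes an internal start. The windows of DSP and CLDN1 reach 96 and 29 bases into their models, and that of CLDN2 ends just before its model. Each run reads 5′ to 3′ toward the start, and capitals mark matches to the motifs named after it.
KRT8: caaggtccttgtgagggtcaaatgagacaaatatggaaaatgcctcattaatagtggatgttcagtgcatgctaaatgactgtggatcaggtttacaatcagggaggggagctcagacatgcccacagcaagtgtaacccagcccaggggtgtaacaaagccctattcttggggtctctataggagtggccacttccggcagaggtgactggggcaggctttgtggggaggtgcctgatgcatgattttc
DSP: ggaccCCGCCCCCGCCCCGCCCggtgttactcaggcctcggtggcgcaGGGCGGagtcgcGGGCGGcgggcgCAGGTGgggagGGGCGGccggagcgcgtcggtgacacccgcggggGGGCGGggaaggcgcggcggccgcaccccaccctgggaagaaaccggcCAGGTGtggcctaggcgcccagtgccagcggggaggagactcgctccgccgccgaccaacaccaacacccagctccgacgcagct
CLDN1: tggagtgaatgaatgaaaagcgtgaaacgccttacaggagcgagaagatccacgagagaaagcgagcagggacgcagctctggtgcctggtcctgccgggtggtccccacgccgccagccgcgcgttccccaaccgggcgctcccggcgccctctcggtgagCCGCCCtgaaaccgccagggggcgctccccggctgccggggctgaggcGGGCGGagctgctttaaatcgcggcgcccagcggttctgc
CLDN2: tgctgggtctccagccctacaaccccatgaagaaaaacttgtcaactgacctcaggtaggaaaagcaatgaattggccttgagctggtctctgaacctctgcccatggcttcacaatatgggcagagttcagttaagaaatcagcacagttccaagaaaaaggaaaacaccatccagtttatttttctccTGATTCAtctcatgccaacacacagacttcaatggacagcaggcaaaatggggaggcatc

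Motifs were searched on both strands of those 250 bases, and overlapping matches were kept. Like that of KRT8, the windows of CLDN4, CLDN12, OCLN, MARVELD1, CGN, CDH2 and CTNNA1 lay wholly inside their gene models. These began from 5 bases (OCLN) to 142208 bases (CTNNA1) past the model's 5′ end, and the counts below cover them too. Of the genes that rose, the 21 include only KRT8, DSP and MARVELD1, so the counts do not cover most genes that rose. The palindromic core of the glucocorticoid response element was in 0 of the 21 genes and in 0.328% of 35116 RefSeq promoters. The GC box GGGCGG was in 16 of 21 and in 42.6% of all, and the AP-1 site TGANTCA in 4 of 21 (PERP, CLDN2, CLDN4 and GJA1) and in 6.57% of all. The E-box CAGGTG, which SNAI repressors bind, was in 5 of 21 (DSP, DSG2, DSC2, OCLN and TJP1) and in 17.5% of all, and TATAAA in 1 of 21, KRT10, and in 10.7% of all. In the runs shown, DSP has 7 GC boxes and 2 E-boxes, CLDN1 has 2 GC boxes, and CLDN2 has an AP-1 match whose first base lies 60 bases before the start. The KRT8 window has none of these motifs, which leaves the bases before the 5′ end of its longer model unread. The runs of DSP and CLDN1 are 78.0% and 68.8% G or C, and those of KRT8 and CLDN2 50.4% and 46.0%. The median was 66% over the windows of the 21 genes and 58% over all promoters, and the GC box counts were not adjusted for it. These matches describe letters in a short window and say nothing of binding.

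Among the 7 keratins, 3 rose and 1 fell, against 7.12% and 4.34% of all tested genes. KRT8 was at 3805 and 3167 CPM in dex and 1660 and 1795 in etoh, a log2 fold change of 1.04 (SE 0.11, adjusted p = 3.1e-07), or 2.05-fold. Both dex libraries were above both etoh libraries, and dex replicate 1 was the highest. Its partner KRT18 was at 3482 and 3061 CPM in dex and 1854 and 2300 in etoh (log2 fold change 0.68, SE 0.11, adjusted p = 1.5e-04). The order of the libraries was similar, with etoh replicate 1 lowest for both chains. On the TPM scale KRT8 over KRT18 was 1.28 and 1.26 in dex and 1.14 and 0.954 in etoh, so the ratio was higher in both dex libraries, and that difference between the partners was not tested. The size of the ratio depends on the short KRT8 transcripts. KRT7 was at 1174 and 1073 CPM in dex and 674 and 762 in etoh, with no overlap (0.67, SE 0.10, adjusted p = 4.4e-05).

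KRT80, a type II keratin found in many epithelia, went the other way. It was at 110 and 101 CPM in dex and 161 and 169 in etoh, both dex libraries lower (log2 fold change -0.63, SE 0.10, adjusted p = 1.3e-04). KRT81, a type II keratin of hair, was at 585 and 534 CPM in dex and 447 and 503 in etoh. Its dex libraries were the higher ones, and it did not pass the test (0.26, SE 0.098, adjusted p = 0.10). The type I chain KRT19 had 150 and 162 reads in dex and 143 and 167 in etoh, with overlapping groups. KRT10, the type I chain of differentiating epidermis, was at 23.7 and 37.3 CPM in dex and 38.5 and 35.8 in etoh. Dex replicate 1 alone was low: the log2 fold change of KRT10 was -0.26 (SE 0.15, adjusted p = 0.34) with all libraries, 0.020 without dex replicate 1 and -0.62 without dex replicate 2, where it passed (adjusted p = 0.0039).

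**Figure D3:**
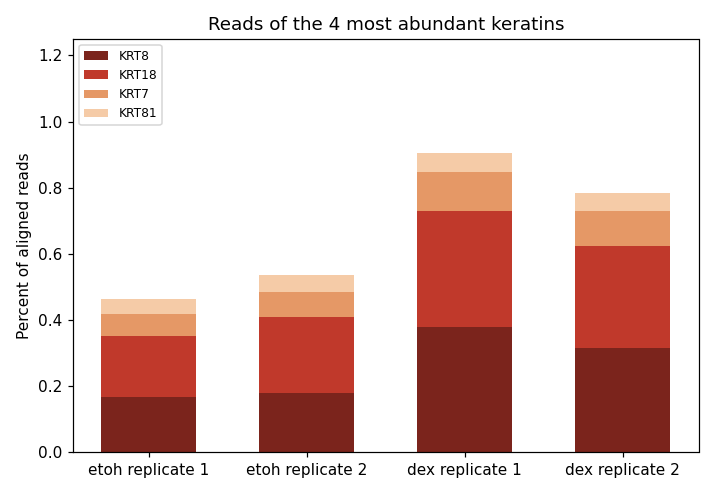
Percent of aligned reads taken by the 4 most abundant keratins in each library, stacked from 0. KRT8, KRT18, KRT7 and KRT81 together took 0.844% ± 0.0857 of reads in dex and 0.500% ± 0.0513 in etoh, and KRT8 with KRT18 made up most of each bar.

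Type II keratin genes, and the single type I gene KRT18, lie side by side on chromosome 12 (52168996 to 52952901 in GRCh38, GENCODE 29). Of 27 keratin genes listed there, 16 had under 40 reads over the 4 libraries and 11 were tested. Of these 11, 6 rose and 1 fell, against 7.12% and 4.34% of all tested genes. Without KRT6A, which reached the count filter through its dex libraries alone, 5 of 10 rose and 1 fell. The called genes lay toward the ends of the cluster, except KRT6A in its middle. KRT80 (52168996 to 52192000), which fell, is the outermost gene, and the KRT7 gene model (52232520 to 52252186), which rose, begins 40520 bases further on. KRT8 (52897187 to 52949954, minus strand) and KRT18 (52948871 to 52952901, plus strand) close the other end, and their models share 1083 bases. Between them, KRT6A, a keratin of wound-edge and activated epidermis, had 33 and 38 reads in dex and 7 and 5 in etoh (log2 fold change 2.60, SE 0.42). That gene was tested on the strength of its dex libraries alone, so its estimate is a description. Of its 31-base words, 52.2% also occur in other genes, mostly KRT6C.

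**Figure D4:**
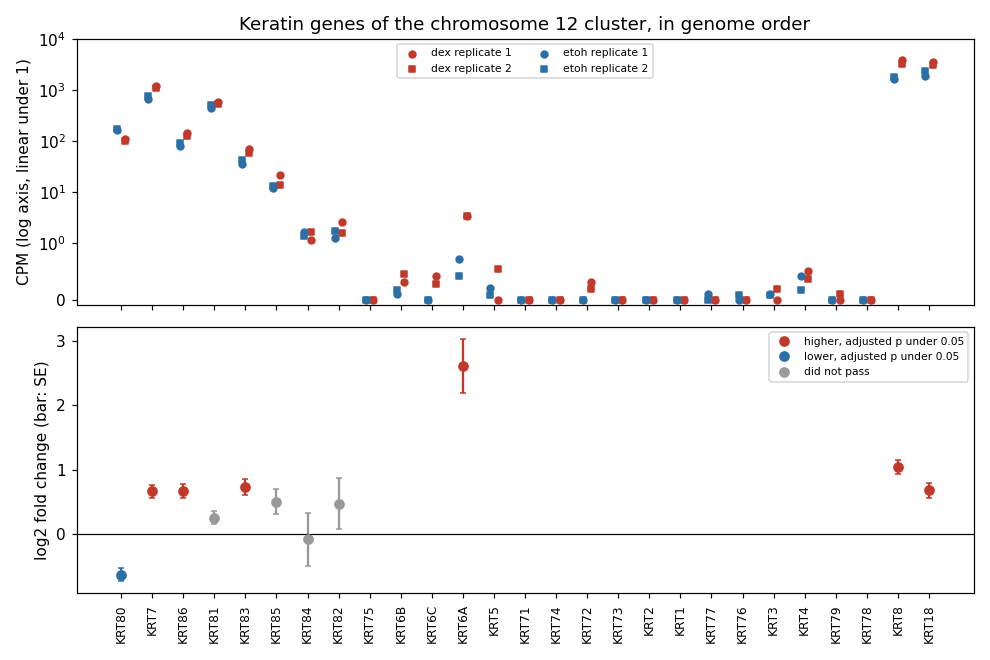
Keratin genes of chromosome 12 in genome order, equally spaced. The upper panel gives CPM in each library (red dex, blue etoh; log axis, linear under 1), and the lower panel the log2 fold change with its SE for the 11 tested genes. Expression is at both ends of the cluster, KRT80 at the left end is the only tested gene that fell, and KRT6A in the middle has the largest estimate at a low count.

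Sequence shared between genes limits these keratin counts. The share of 31-base words of the most-read transcript that also occur in another listed gene was 49.9% for KRT81 (43.2% with KRT86 alone), 13.5% for KRT7, 12.1% for KRT8 and 6.92% for KRT18. KRT86 and KRT83, the hair keratins beside KRT81, rose, with log2 fold changes of 0.67 (SE 0.11, adjusted p = 1.2e-04) and 0.73 (SE 0.12, adjusted p = 2.1e-04). Their own shares were 42.8% and 23.1%, mostly with KRT81, which had 22052 reads against 4692 of KRT86 and 2188 of KRT83. Summed over KRT81, KRT83 and KRT86, the level was 798 and 719 CPM in dex and 563 and 638 in etoh, higher in both dex libraries. KRT8 and KRT18 also overlap each other on opposite strands, and whether reads were counted by strand is not given here. None of the 50 KRT8 and 67 KRT18 pseudogenes named in GENCODE 29 is a listed gene. Those copies contain 49.0% of the 31-base words of KRT8 and 60.4% of those of KRT18, and their part in the counts was not tested.

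Of 8 desmosomal genes, 2 rose and 1 fell, against 7.12% and 4.34% of all tested genes. The change of largest size was in a plaque protein. PKP2, the plakophilin of simple epithelia and heart, was at 25.0 and 33.7 CPM in dex and 11.1 and 10.9 in etoh, a log2 fold change of 1.45 (SE 0.16, adjusted p = 9.7e-07), or 2.73-fold. Both dex libraries were clearly higher, dex replicate 2 more so. DSP, desmoplakin, was at 180 and 173 CPM in dex and 128 and 118 in etoh, again without overlap (0.54, SE 0.10, adjusted p = 6.4e-04). Both genes encode plaque proteins, of which desmoplakin is the one that links the plaque to keratin. Of the other plaque proteins, PKP3 was at 22.7 and 21.0 CPM in dex and 17.3 and 20.9 in etoh, and PKP4, a plakophilin that also binds classical cadherins, at 100 and 92.3 in dex and 102 and 109 in etoh. JUP, plakoglobin, was at 42.5 and 39.3 CPM in dex and 41.0 and 45.7 in etoh. These 3 did not pass (log2 fold changes 0.21, -0.11 and -0.062, with SE 0.15, 0.10 and 0.12).

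The desmosomal cadherins had lower values in dex. DSG2, the desmoglein of simple epithelia, was at 182 and 202 CPM in dex and 263 and 228 in etoh, with both dex libraries lower (log2 fold change -0.33, SE 0.10, adjusted p = 0.038). That call was lost without dex replicate 1 (-0.27, adjusted p = 0.26), without etoh replicate 1 (-0.21, adjusted p = 0.48), with DESeq2 (-0.34, adjusted p = 0.068) and with the most-read transcript alone (-0.32, adjusted p = 0.067). Its partner DSC2, desmocollin, had far fewer reads, at 5.09 and 4.67 CPM in dex and 7.17 and 6.98 in etoh, and did not pass (-0.51, SE 0.23, adjusted p = 0.16). Per length, DSC2 was 0.0223 to 0.0294 times DSG2 in the 4 libraries. PERP, a tetraspan desmosomal protein and p53 target, was at 189 and 201 CPM in dex and 237 and 219 in etoh, lower in both dex libraries without passing (-0.20, SE 0.098, adjusted p = 0.21). On the TPM scale PKP4 over PKP2 was 10.3 and 10.8 in etoh and 4.47 and 3.14 in dex, lower in both dex libraries. That ratio leaves out PKP3, and its difference between the groups was not tested.

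Of 10 tight junction genes with 40 or more reads, 2 rose and 2 fell, against 7.12% and 4.34% of all tested genes. The 2 that fell were claudins. CLDN1, a claudin that seals the junction, was at 56.0 and 51.1 CPM in dex and 97.8 and 98.8 in etoh, a log2 fold change of -0.86 (SE 0.11, adjusted p = 5.1e-06), or 1.81-fold lower. The etoh libraries differed from each other by far less than from the dex libraries. CLDN2, a claudin that forms a cation and water pore, was at 36.1 and 36.9 CPM in dex and 61.0 and 53.4 in etoh, again without overlap (-0.62, SE 0.12, adjusted p = 6.8e-04). A sealing and a pore-forming claudin therefore both had less message in dex. CLDN12 was at 35.1 and 39.9 CPM in dex and 39.0 and 41.1 in etoh, with overlapping groups. CLDN4, which reached the count filter through its dex libraries alone, had 17 and 15 reads in dex and 6 and 13 in etoh (log2 fold change 0.82, SE 0.45, adjusted p = 0.29), and CLDN7, below the read limit and so left out of the counts, had 10 and 15 in dex and 1 and 4 in etoh.

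F11R, the junctional adhesion molecule JAM-A, was at 95.6 and 86.0 CPM in dex and 58.3 and 59.1 in etoh (log2 fold change 0.65, SE 0.11, adjusted p = 1.8e-04). Both dex libraries were higher, and the most-read of its 4 listed transcripts held 73.4 to 76.4% of its reads in each library. MARVELD1, a MARVEL-domain membrane protein, was at 48.0 and 54.0 CPM in dex and 39.1 and 39.8 in etoh (0.39, SE 0.11, adjusted p = 0.027). MARVELD1 did not pass when dex replicate 2 (0.31, adjusted p = 0.175), etoh replicate 1 (0.40, adjusted p = 0.13) or etoh replicate 2 (0.39, adjusted p = 0.099) was left out, nor with DESeq2 (0.39, adjusted p = 0.12). Its relatives in the tight junction had lower dex values: occludin, OCLN, was at 38.2 and 41.4 CPM in dex and 54.6 and 46.7 in etoh (-0.32, SE 0.12, adjusted p = 0.090). OCLN passed without etoh replicate 2 (-0.45, adjusted p = 0.032) and with its most-read transcript alone (-0.42, adjusted p = 0.046). MARVELD2, tricellulin, which seals the corners where 3 cells meet, was at 6.10 and 7.63 CPM in dex and 9.52 and 8.50 in etoh (-0.36, SE 0.21, adjusted p = 0.31).

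The scaffold genes of the tight junction did not pass. TJP1, which encodes ZO-1, was at 401 and 428 CPM in dex and 390 and 399 in etoh (log2 fold change 0.093, SE 0.094, adjusted p = 0.60). CGN, cingulin, had 31 and 33 reads in dex and 20 and 25 in etoh, and TJP3, ZO-3, stayed under the read limit. Within 1 junction type the responses therefore differed in sign among membrane proteins, with the abundant scaffold TJP1 close to 0.

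None of the 5 adherens junction and adhesion genes passed. At an unadjusted p under 0.05 the number was also 0 of 5, where 23.6% of all tested genes were, and 5 genes are too few to read anything from that. CDH1 was at 37.3 and 35.6 CPM in dex and 32.6 and 34.0 in etoh (log2 fold change 0.15, SE 0.12), and CDH2 at 164 and 175 in dex and 161 and 172 in etoh (0.049, SE 0.098). CTNNA1 was at 281 and 282 CPM in dex and 307 and 287 in etoh (-0.054, SE 0.095), and CTNND1, the p120 catenin that keeps cadherins at the surface, at 317 and 313 in dex and 322 and 321 in etoh (-0.0088, SE 0.094). EPCAM, an epithelial adhesion protein, was at 8.34 and 8.53 CPM in dex and 8.50 and 11.3 in etoh. DESeq2 and limma-voom also called 0 of these 5. The estimates for the 4 cadherin and catenin genes lay between -0.054 and 0.15, with SE of 0.094 to 0.12.

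GJA1, connexin 43, the main gap junction protein of the set, was at 136 and 156 CPM in dex and 183 and 176 in etoh. Both dex libraries were lower, and the gene did not pass with all libraries (log2 fold change -0.27, SE 0.10, adjusted p = 0.092) but did without dex replicate 2 (-0.37, adjusted p = 0.040). GJB2, connexin 26, had 4 and 8 reads in dex and 10 and 8 in etoh. VIM was at 664 and 723 CPM in dex and 745 and 724 in etoh, without passing (-0.061, SE 0.095, adjusted p = 0.76). Of the 31-base words of its most-read transcript, 41.4% also occur in overlapping listed genes, mainly VIM-AS1, which had 1990 reads against 30460 of VIM. Per length, VIM over KRT18 was 0.145 and 0.178 in dex and 0.301 and 0.238 in etoh. KRT18 rose and VIM did not pass, and the difference between the genes was not tested.

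The shares of reads that the transcripts of KRT8 and KRT18 took differed little between groups. The 3 KRT18 transcripts held 30.7 to 34.8% each in every library. Of the 10 KRT8 transcripts, the 4 longest held 17.7 to 20.9% each. Of these 10, 2 had a higher share in both dex libraries, 3 shorter ones a lower share, and 5 overlapped. KRT8-013, the most read of the 3, held 6.84% and 7.60% in dex and 8.91% and 8.04% in etoh. For MARVELD2, the most-read transcript, MARVELD2-002, held 58.3% and 68.2% of its reads in dex and 76.3% and 79.2% in etoh, on 60 to 101 reads of the gene per library, lower in both dex libraries. None of these differences was tested, and KRT8-013 and MARVELD2-002 were singled out after their values were seen. How reads that fit several transcripts were placed is not given.

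Other genes of the same structures were read from lists of 112 names, of which 105 were in the files and 51 were tested. Of these, 12 rose and 2 fell, against 7.12% and 4.34% of all tested genes, with a median log2 fold change of 0.040. The lists were chosen with earlier results of these data known, so these counts are a description and no test. Of the 47 that reached the count filter in both groups, 11 rose and 2 fell. PPL, periplakin, which ties keratins to the cell cortex beside desmosomes, had 118 and 113 reads in dex and 24 and 28 in etoh (2.22, SE 0.24, adjusted p = 5.5e-07). ITGB4, the integrin chain of hemidesmosomes, was at 108 and 90.0 CPM in dex and 36.7 and 40.9 in etoh (1.38, SE 0.12, adjusted p = 2.0e-08). Hemidesmosomes bind keratins to the basement membrane, and 3 of 6 genes of that list rose. The others were the linker PLEC, plectin (0.46, SE 0.11), and the tetraspanin CD151 (0.41, SE 0.11), while ITGA6, the partner chain of ITGB4, was at -0.0068 (SE 0.10).

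Among 20 further tight junction and polarity genes, 2 rose and 1 fell, a share near the 11.5% of all tested genes: the adhesion receptor CXADR (0.45, SE 0.11) and PARD6B (0.63, SE 0.14) rose, and PARD3, which pairs with PARD6 proteins in the polarity complex, fell (-0.36, SE 0.10). Of 10 further adherens junction genes, VCL, vinculin (0.37, SE 0.095), and the nectin-like PVR (0.52, SE 0.10) rose and nectin-3, PVRL3, fell (-0.49, SE 0.12). CTNNB1, beta-catenin, was at 0.040 (SE 0.096). Of 3 further genes of the gap junction list, PANX1, a pannexin channel and not a connexin, rose (0.66, SE 0.15). The connexin of that list, GJC1, did not pass (-0.13, SE 0.11). Of 3 further desmosome and plakin genes PPL alone passed, and of 8 further filament genes that reached the count filter in both groups KRT86 and KRT83 did.

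**Figure D5:**
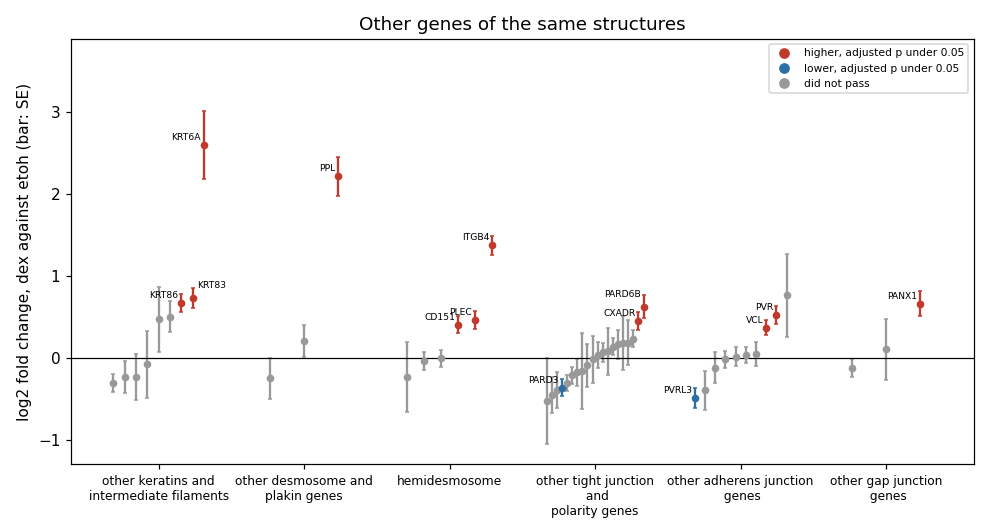
Log2 fold change with its SE for the 51 tested genes of the further lists, sorted within each list, with the 14 called genes named. Red genes (12) rose, blue genes (2) fell, and grey genes did not pass. PPL and ITGB4 have the largest estimates among genes that reached the count filter in both groups, KRT6A lies higher on few reads, and most grey points lie near 0.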

How the data were processed

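RNA-seq was done on 2 dex and 2 etoh libraries. The deposited counts are raw numbers of aligned reads per transcript, 1 file per library over 119207 GENCODE-style transcript names, with unaligned reads in an unnamed row (17.2 to 18.7% of reads), which was left out. Per the submitters' processing notes the authors used CASAVA, Bowtie, SAMtools and DESeq2. Versions, roles, aligner settings, genome build and use of strand are not stated in those notes or the labels.

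Reads were summed per gene symbol over all transcripts (121 symbols join several gene identifiers). CPM used all aligned reads; TPM summed reads per transcript length. Replicates differed beyond counting noise (chi-square over degrees of freedom of 5.83 in dex and 7.62 in etoh). The test was edgeR 4.0.16 in R 4.3.3: filterByExpr with minimum count 10, TMM (factors 0.986 to 1.02), quasi-likelihood, two-sided, prior count 0.125, Benjamini-Hochberg over 14716 genes. SE is the absolute log2 fold change over the square root of F. The code was tested on simulated data. Positions and shared 31-base words came from GENCODE 29 (GRCh38), where all 37 genes were found, and promoters from RefSeq. Genes named in full were those that passed or were abundant, plus up to 4 called genes of each further list; others are given by values. The remaining tested genes of those lists enter by count alone. From the further and marker lists 2 genes were taken out and are not reported here. Members and lists were chosen with earlier results of these data known. Alternatives are given in the closing section.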

Additional observations from a re-analysis of the deposited data

How the results depend on the processing

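With 2 libraries per group, calls near the threshold rest on single libraries. The members that passed numbered 6 to 7 higher and 3 to 6 lower when each library was left out in turn, and the genes called among all those tested were 699 to 1173 higher and 401 to 831 lower. The lower count was 421 without dex replicate 1 and 401 without etoh replicate 1, against 639 with all libraries. Without dex replicate 2, 6 members were lower. DESeq2 called 652 genes higher and 386 lower, and 6 and 3 members. KRT7, KRT8, KRT18, KRT80, PKP2, DSP, CLDN1, CLDN2 and F11R passed under all 13 alternatives, in the same direction (DESeq2 or upper-quartile factors or library totals for TMM, 2 other count filters, DESeq2, limma-voom, the most-read transcript, the replicate block, and each library left out). DSG2 and MARVELD1 passed under 8 of 13 each. The sign of 5 members turned when a library was left out: without each library in turn, the range was -0.62 to 0.020 for KRT10, -0.17 to 0.0053 for CLDN12, -0.13 to 8.3e-05 for JUP, -0.12 to 0.0076 for CTNNA1 and -0.031 to 0.0073 for CTNND1. The cause was not tested. A group left with a single library borrowed its spread from the other.

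With the replicate number as a block, 986 genes were higher and 576 lower, with 6 members higher and 3 lower, DSG2 and MARVELD1 being the ones lost. The labels do not say that a number marks a shared day or batch. Same-numbered libraries deviated from their group means in opposite ways (r = -0.22 over 10919 genes), and a crossed pairing, added after the data were seen, gave 1618 genes higher and 1201 lower, with 8 and 6 members.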
